A study of Rattus norvegicus with 10 samples.

Results

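Thyroid follicular cells take up iodide, pass it to the lumen where thyroglobulin is iodinated, and release the finished hormone to the blood. The genes described here encode 7 proteins of this traffic, namely Slc5a5, Slc26a4, Slc26a7, Ano1, Slc16a10, Kcnq1 and Kcne2. They were chosen by name and found on the array through the transcript accession of each reporter, the probe spotted for a transcript. This gave 10 reporters for the 7 genes, among 17998 named reporters for 15154 genes. The cells were PCCl3, an established line derived from rat thyroid follicles that was kept throughout in medium with TSH and 5 other hormones or factors. siFoxE1 cells had received 25 nM of an siRNA pool against FoxE1, siScramble cells 25 nM of a non-targeting pool with the same transfection reagent, and wt cells no treatment. RNA was taken after 48 h from 4 cultures per condition. siFoxE1 cells were set against siScramble cells on 5 arrays and against wt cells on 5 more, each of which read 2 RNAs in 2 dyes. On 4 of them the RNA of 1 culture per condition was hybridized, with siFoxE1 in Cy5, and on the other the pooled RNA of these cultures was hybridized with the dyes swapped. The pools add no culture, so n is 4 throughout, and the same 4 siFoxE1 extracts served both comparisons. The dyes are taken from the sample labels, although the study's design drawing has them reversed.

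Each array carried 58717 spots for transcripts, of which 60.6 to 68.2% were well above background in Cy3 and 56.8 to 60.3% in Cy5, and none was saturated. Precision was limited by the number of arrays. All 6 markers of follicular cells, among them Tg, Pax8 and Foxe1, were above background in both channels of every individual array. Their mean log2 intensity per culture spanned 11.55 to 12.19 in siFoxE1, 11.82 to 12.50 in siScramble and 11.78 to 12.62 in wt cells. This mean includes the silenced gene itself. siFoxE1 was read in Cy5 and both controls in Cy3, so dye and silencing cannot be told apart in these ranges. Of 6 epithelial markers Epcam, Krt18 and Krt19 were above background in none of these channels. The same held for Chga, Chgb and Scg2 of 5 C cell markers, for Dcn and Lum of 6 fibroblast markers, for Pecam1 and Tek of 4 endothelial markers with a reporter, and for Ptprc and Itgam of 6 leukocyte markers. These lists were not uniformly absent. Above background in all 16 channels were 2 epithelial, 1 C cell, 3 fibroblast, 1 endothelial and 2 leukocyte markers. Of the epithelial markers Cdh1, E-cadherin, rose by 1.09 on the log2 scale against siScramble (SE 0.133, limma adjusted p = 0.0426), with 1.33 against wt (adjusted p = 0.116), and Krt7, a keratin, had 0.26 and 0.42 (adjusted p = 0.271 and 0.233). The call of Cdh1 was lost without replicate 1 (adjusted p = 0.146) and held in 12 of 17 alternatives. The part of these markers in the values below was not tested. Foxe1, the gene silenced, had log2 ratios of siFoxE1 over siScramble of -0.77, -0.46, -0.62 and -0.39 for replicates 1 to 4 and -1.03 on the pooled array. Over wt the same ratios were -0.52, -0.55, -0.35, -0.62 and -1.21. Foxe1 fell by 0.795 on the log2 scale against siScramble (SE 0.0856, limma adjusted p = 0.0226) and by 0.86 against wt (SE 0.0772, adjusted p = 0.0326). The pooled arrays, which weigh as much as the 4 cultures together, lay lowest, and the individual arrays alone gave -0.56 and -0.51 (limma adjusted p = 0.0269 and 0.0394). Foxe1 stayed below 0 in every alternative, but the call held in 11 of 17 against siScramble and 11 of 15 against wt. It was lost against siScramble without replicate 1 (adjusted p = 0.0541), and against wt without replicate 1 (0.233) or replicate 4 (0.23).

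In the follicle the sodium/iodide symporter NIS, the product of Slc5a5, brings iodide into the cell at the basolateral side together with sodium, whose gradient is kept by the sodium pump. A potassium channel of the subunits KCNQ1 and KCNE2 is needed for this uptake in mice. At the apical side pendrin (Slc26a4) and the calcium-activated chloride channel anoctamin 1 (Ano1) let iodide pass to the lumen, and SLC26A7 is an anion transporter whose loss causes hypothyroidism in humans and mice. The monocarboxylate transporter MCT10, the product of Slc16a10, carries thyroid hormones across the cell membrane. FoxE1 is a forkhead transcription factor of thyroid development and differentiation.

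Since the silenced gene encodes a DNA-binding factor, the 250 bases before the transcription start are shown for 3 genes. By the brighter or only reporter of each, their intervals against both controls left out 0, while those of the dimmer Ano1 reporter covered 0. The sequences are RefSeq's on the rat build GRCr8, in which 4 of the 7 genes matched a promoter, and run 5′ to 3′ on the strand of the gene. Slc5a5 lies on the plus strand (chr16:18580455-18580704), Slc26a4 on the minus strand (chr6:53873217-53873466) and Ano1 on the minus strand (chr1:209329339-209329588). Capitals mark 3 motifs on either strand, AAACA (the core that FoxE1 recognises), TTGG (the core of NF1/CTF sites) and GGGCGG (the GC box).
Slc5a5: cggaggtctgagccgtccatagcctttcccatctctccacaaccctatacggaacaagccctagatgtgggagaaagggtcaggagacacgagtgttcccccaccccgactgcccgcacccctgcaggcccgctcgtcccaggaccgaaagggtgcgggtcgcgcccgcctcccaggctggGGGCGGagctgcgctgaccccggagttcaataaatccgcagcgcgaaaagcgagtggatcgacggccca
Slc26a4: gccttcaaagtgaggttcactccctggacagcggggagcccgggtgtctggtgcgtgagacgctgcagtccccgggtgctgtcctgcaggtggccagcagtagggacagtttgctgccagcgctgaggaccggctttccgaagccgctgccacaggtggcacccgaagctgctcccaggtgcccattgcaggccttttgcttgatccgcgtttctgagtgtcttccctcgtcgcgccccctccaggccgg
Ano1: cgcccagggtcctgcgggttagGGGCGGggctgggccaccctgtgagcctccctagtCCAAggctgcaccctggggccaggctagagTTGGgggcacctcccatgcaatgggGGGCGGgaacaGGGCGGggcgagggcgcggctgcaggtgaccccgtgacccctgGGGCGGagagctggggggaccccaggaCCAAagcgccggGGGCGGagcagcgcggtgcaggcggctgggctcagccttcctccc
Slc5a5 held 1 GC box, 69 bases before the start, and Ano1 held 5 GC boxes and 3 TTGG motifs. None of the motifs was in the Slc26a4 window. Slc16a10, the other gene with a promoter, held 2 GC boxes and 3 TTGG motifs. AAACA was in none of the 4 windows, against 47% of 33469 rat promoter windows of the same length, of which 86.6% held TTGG and 30.5% the GC box. A TTGG motif followed by AAACA after 5 to 30 bases was likewise in none of the 4 and in 6.36% of all. A match of so few letters is a description of the window, and other regions such as distal enhancers were not analysed here.

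Of the 10 reporters, 8 for 5 genes were well above background on enough arrays to be tested, which was set at 3 of 5 in either channel. The reporters of Slc26a7 and Slc16a10 were not tested. Values are log2 ratios after background correction, loess and quantile normalization, and each was fitted in limma with a term for dye, in which the mean of the 4 individual arrays and the pooled array weigh equally. p values were adjusted by Benjamini-Hochberg over all reporters of the array that were tested. At an adjusted p under 0.05, 22 of 18139 reporters were called against siScramble (0.121%), 9 of 18526 against wt (0.0486%) and 0 of 18787 for siScramble against wt (0%). None of the 8 reporters of these genes was called in any of the comparisons. At an unadjusted p under 0.05, 4 of the 8 were below the threshold against siScramble, where 13.1% of all reporters were, and 4 of 8 against wt, where 17.2% were. They were the same 4 reporters, both of Slc5a5, that of Slc26a4 and the brighter of Ano1, but the comparisons share the siFoxE1 extracts, and Slc26a4 entered the test against wt only through the siFoxE1 channel, in which it is high, so these counts are no support for the members. In siScramble against wt, 1 of 8 was, a reporter of Slc5a5, where 3.51% of all were. The replicate numbers pair the arrays, since same-numbered arrays carry 1 siFoxE1 extract. A fit of all 10 arrays with the number as a block called 64 reporters against siScramble, 1502 against wt and 2 for siScramble against wt. Without the block the fit of 10 arrays called 96 and 1652 in the comparisons with siFoxE1, but it takes arrays that share an extract as independent. In the fit with the block the pools, which hold RNA of the same cultures, count as a block of their own.

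**Figure D1:**
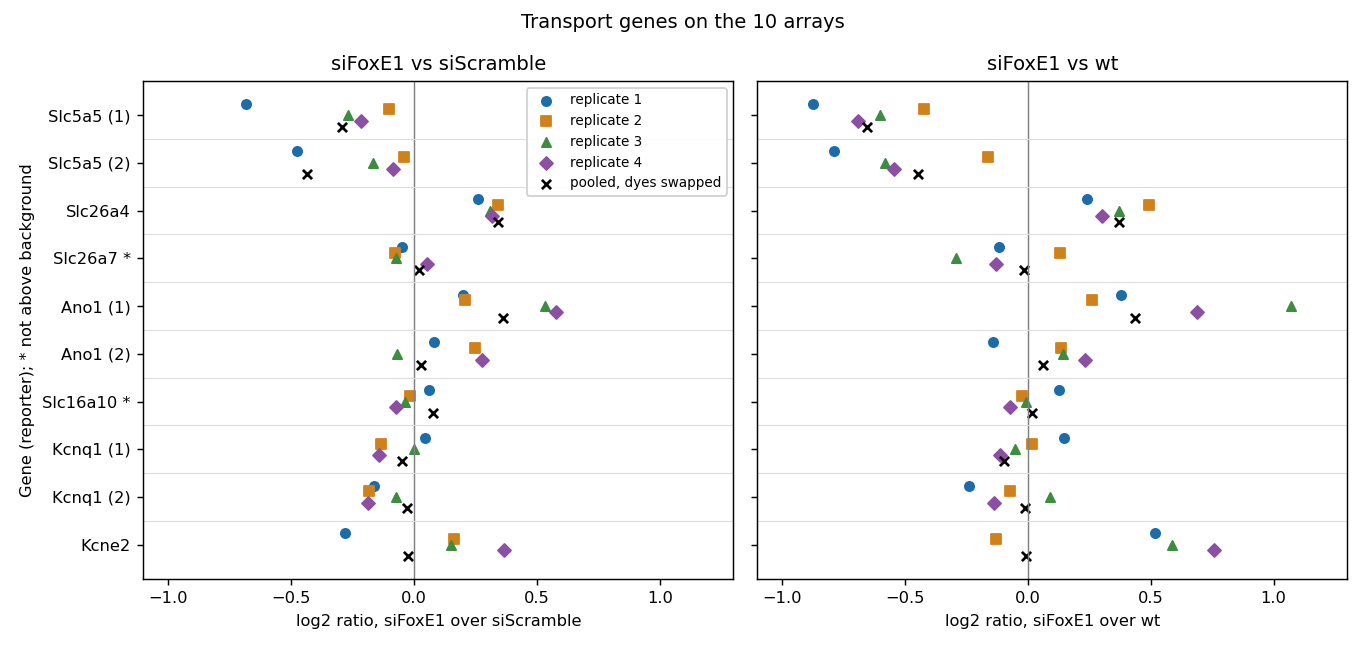
Log2 ratios of siFoxE1 over siScramble (left) and over wt (right) for the 10 reporters, 1 point per array, with replicates 1 to 4 and the pooled dye-swapped array marked apart. Both Slc5a5 reporters lie below 0 on all 10 arrays, Slc26a4 and the first Ano1 reporter lie above 0 on all 10, and genes with an asterisk were not tested.

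Slc5a5 RNA, which encodes the symporter itself, read lower in siFoxE1 cells than in either control on every array, and lower in siScramble than in wt cells for every number, although no estimate passed the adjusted threshold. The gene had 2 reporters, reporter 1 (A_44_P115192) bright and reporter 2 (A_64_P080233) dimmer. For reporter 1 the log2 ratio of siFoxE1 over siScramble was -0.68, -0.10, -0.27 and -0.22 in replicates 1 to 4 and -0.29 on the pooled array. Over wt it was -0.87, -0.42, -0.60 and -0.69 in the same order and -0.66 on the pooled array. Replicate 1 gave the lowest ratio and replicate 2 the highest in both comparisons, and within each number the ratio over wt was below that over siScramble. The individual arrays averaged -0.32 ± 0.25 against siScramble and -0.65 ± 0.19 against wt (SD, n = 4 each), and the exact two-sided sign-flip test gave p = 0.125 for each, the smallest that 4 cultures allow. limma gave a log2 fold change of -0.31 against siScramble, a 1.24-fold lower level (SE 0.108, 95% interval -0.56 to -0.0548, p = 0.0231, adjusted p = 0.302). Against wt the log2 fold change was -0.65, a 1.57-fold lower level (SE 0.0949, 95% interval -0.88 to -0.42, limma adjusted p = 0.119), which ranked 48th of 18526 reporters by p. The fit of all 10 arrays gave an adjusted p of 0.00661 against wt and 0.193 against siScramble, and 0.0035 and 0.191 with the replicate number as a block. Without the block, arrays that share a siFoxE1 extract count as independent. With it the pools still count as independent of their cultures, so the p values of these fits can be too small. In bulk RNA, fewer cells that make the transcript and less of it per cell cannot be told apart.

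Reporter 2 of Slc5a5, which matches the same transcript, also lay below 0 on all 10 arrays. Its ratios over siScramble were -0.48, -0.0415, -0.17 and -0.0849 in replicates 1 to 4 and -0.44 on the pooled array, and over wt -0.79, -0.16, -0.58, -0.55 and -0.45. Replicate 1 was again lowest and replicate 2 again nearest to 0. The individual arrays averaged -0.19 ± 0.20 against siScramble and -0.52 ± 0.26 against wt (SD, n = 4 each). The limma estimates were -0.31 against siScramble (SE 0.0924, adjusted p = 0.251), where the pooled array drew the value away from the mean of the cultures, and -0.48 against wt (SE 0.117, adjusted p = 0.233). The fit of all 10 arrays gave an adjusted p of 0.0166 against wt, and 0.0163 with the block.

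Slc5a5 also had lower values in siScramble than in wt cells, which no array compared directly. The difference was taken as the ratio over wt minus the ratio over siScramble of each number, in which the shared siFoxE1 extract cancels. For reporter 1 the log2 difference of siScramble over wt was -0.19, -0.32, -0.33 and -0.48 for numbers 1 to 4, with a mean of -0.33 ± 0.12 (SD, n = 4), and -0.36 between the pooled arrays. All 5 values were below 0, and they were nearer to each other than the ratios of siFoxE1 over siScramble, whose SD was 0.25. In the fit of 10 arrays the estimate was -0.34, a 1.26-fold lower level in siScramble cells (SE 0.117, 95% interval -0.59 to -0.0793, p = 0.015, adjusted p = 0.984), and the exact sign-flip test gave p = 0.125. That fit of 10 arrays did not model the shared extract, so for this difference its SE and p can be too large. With the block the SE was 0.0737 and the adjusted p 0.145. limma on the differences of same-numbered arrays, without the pools, gave -0.33 (SE 0.069, adjusted p = 0.118). Reporter 2 gave -0.31, -0.12, -0.41 and -0.46 for numbers 1 to 4 but -0.0108 between the pools, and an estimate of -0.26 (SE 0.126, 95% interval -0.54 to 0.0139, adjusted p = 0.984). The point estimate for siScramble against wt, -0.34, was close in size to that for siFoxE1 against siScramble, -0.31. siScramble cells differ from wt cells by transfection and by the non-targeting siRNA, which cannot be told apart here. All wt arrays were on 1 slide, while siScramble replicate 3 and the siScramble pool were on another slide. The siScramble arrays of the first slide alone gave -0.33 for siFoxE1 over siScramble (SE 0.114), and a term for slide gave -0.35 (SE 0.181).

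**Figure D2:**
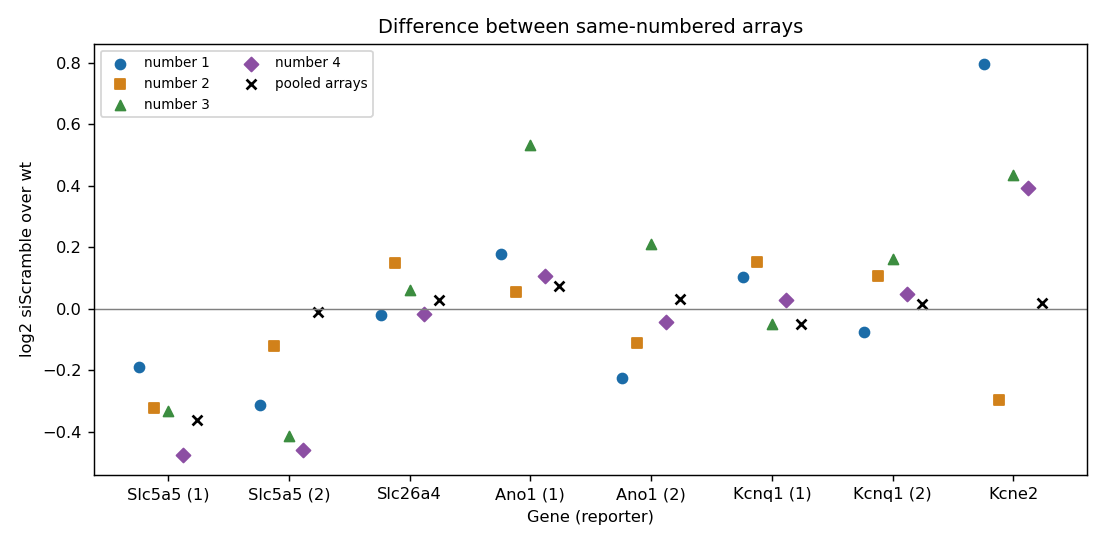
Log2 siScramble over wt for the 8 tested reporters, obtained as the difference between same-numbered arrays, 1 point per number and 1 for the pools. Slc5a5 reporter 1 lies between -0.19 and -0.48, while Kcne2 runs from -0.30 to 0.80.

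By reporter 1 the levels of Slc5a5 in the 12 cultures followed the same order in every number, lowest in siFoxE1, then siScramble, then wt. The normalized log2 intensity was 12.07, 12.78, 12.64 and 12.77 in siFoxE1 cultures 1 to 4, 12.76, 12.91, 12.86 and 13.03 in siScramble cultures, and 12.92, 13.19, 13.30 and 13.43 in wt cultures. The siFoxE1 cultures did not overlap with the wt cultures, but siFoxE1 and siScramble overlapped, as did siScramble and wt. Within a condition the spread was 0.716 among siFoxE1, 0.262 among siScramble and 0.504 among wt cultures, whereas a siFoxE1 extract read on both of its arrays differed by 0.0288 to 0.102. For reporter 2 the siFoxE1 cultures spanned 8.67 to 9.47, the siScramble cultures 9.06 to 9.52 and the wt cultures 9.54 to 10.04, so that wt overlapped with neither, while siFoxE1 and siScramble overlapped and numbers 2 and 4 were nearly level between them. siFoxE1 was read in Cy5 and both controls in Cy3, so dye and silencing cannot be told apart in these levels, while siScramble and wt share their dye. The Cy3 channels compared directly in limma gave -0.32 for siScramble against wt (SE 0.117, adjusted p = 0.999).

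**Figure D3:**
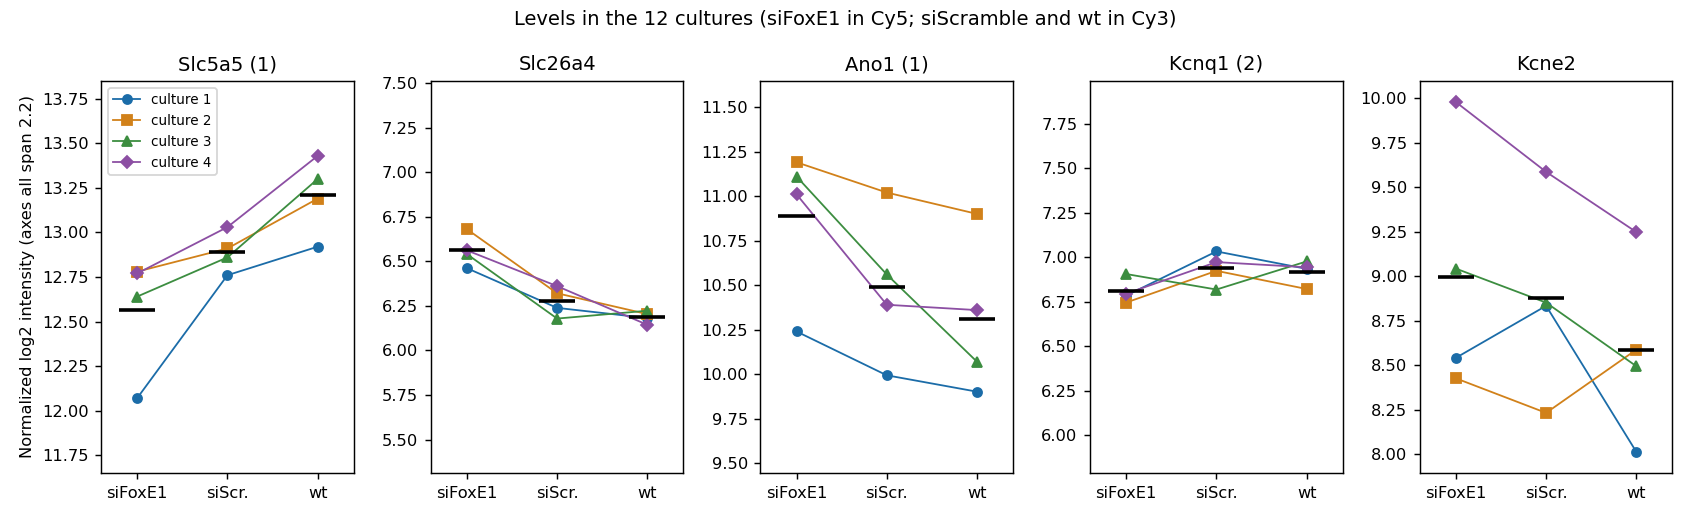
Normalized log2 intensity of the brighter or only tested reporter of 5 genes in siFoxE1, siScramble and wt cultures, with lines joining cultures of a number and bars at the mean (n = 4). Slc5a5 lies below its controls in each number, Slc26a4 lies above them in each number, and the cultures of Kcne2 are far apart.

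Among the genes for iodide exit, Slc26a4 gave higher values in siFoxE1 cells on all 10 arrays, without passing the adjusted threshold in the main fits. Pendrin, its product, exchanges anions such as chloride, bicarbonate and iodide. The ratios of siFoxE1 over siScramble were 0.26, 0.34, 0.31 and 0.32 in replicates 1 to 4 and 0.34 on the pooled array, and over wt 0.24, 0.49, 0.37, 0.30 and 0.37. The individual arrays averaged 0.31 ± 0.0341 against siScramble and 0.35 ± 0.11 against wt (SD, n = 4 each). limma gave 0.33 against siScramble (SE 0.0634, 95% interval 0.18 to 0.47, adjusted p = 0.168) and 0.36 against wt (SE 0.0757, 95% interval 0.18 to 0.54, adjusted p = 0.233). The reporter entered the test against wt only through the siFoxE1 channel, so its values against wt, in this and other fits, are a description. Against siScramble the fit of all 10 arrays gave an adjusted p of 0.0265, which the block turned to 0.0559. Against wt it gave 0.00644, and 0.00947 with the block. Between siScramble and wt the differences by number were -0.0207, 0.15, 0.0621 and -0.0164, and the estimate was 0.0408 (SE 0.0652, 95% interval -0.10 to 0.18, adjusted p = 0.984).

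The transcript was faint. Its reporter (A_42_P454378) was well above background on 10 of 10 arrays in the siFoxE1 channel, on 3 of 5 in the siScramble channel and on 1 of 5 in the wt channel, with median signals of 75 to 105 in Cy5 over a background of 53.6 to 56.6 and of 28.6 to 50.1 in Cy3 over 20.4 to 22.4. In culture the log2 intensity was 6.46 to 6.68 in siFoxE1, 6.18 to 6.36 in siScramble and 6.14 to 6.22 in wt cells. siFoxE1 overlapped with neither control, while siScramble and wt overlapped. The offset of 50 added in background correction pulls ratios of faint spots towards 0. In Feature Extraction's own processed signals, which carry no such offset, the log2 fold change was 1.23 against siScramble (SE 0.118, adjusted p = 0.0875) and 1.6 against wt (SE 0.188, adjusted p = 0.164), and 0.42 for siScramble against wt (SE 0.18, adjusted p = 0.992). With 1 of 5 wt channels above background, the sizes that involve wt rest mostly on signals not well above background.

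Ano1, the calcium-activated chloride channel, had 2 reporters that differed, reporter 1 with 10 spots on each array and reporter 2 with 1. For reporter 1 (A_42_P495579) the ratio of siFoxE1 over siScramble was 0.20, 0.21, 0.53 and 0.58 in replicates 1 to 4 and 0.36 on the pooled array, and over wt 0.38, 0.26, 1.07, 0.69 and 0.44. Replicates 3 and 4 were higher than replicates 1 and 2 in both comparisons. The limma estimates were 0.37 against siScramble, a 1.29-fold higher level (SE 0.0945, 95% interval 0.15 to 0.59, adjusted p = 0.223), and 0.52 against wt, a 1.43-fold higher level (SE 0.15, 95% interval 0.16 to 0.88, adjusted p = 0.234). The fit of all 10 arrays gave an adjusted p of 0.226 against siScramble and 0.0265 against wt, and 0.244 and 0.0216 with the block. Its differences of siScramble over wt were 0.18, 0.0542, 0.53 and 0.11 by number, all above 0, with an estimate of 0.19 (SE 0.147, 95% interval -0.14 to 0.51, adjusted p = 0.984), which was 0.10 without replicate 3. Reporter 2 (A_42_P598679), for the same transcript, was faint and gave 0.0825 against siScramble (SE 0.0834, 95% interval -0.11 to 0.28, adjusted p = 0.741) and 0.0781 against wt (SE 0.0884, 95% interval -0.13 to 0.29, adjusted p = 0.672), with 1 of 5 arrays below 0 in each. For siScramble over wt it gave -0.0267 (SE 0.0925), with 3 of 5 differences below 0.

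The cultures of Ano1 differed more from each other than the conditions did. Reporter 1 had a log2 intensity of 10.24, 11.19, 11.11 and 11.01 in siFoxE1 cultures 1 to 4, of 9.99, 11.02, 10.56 and 10.39 in siScramble cultures, and of 9.90, 10.90, 10.07 and 10.36 in wt cultures. All 3 conditions overlapped, since culture 1 was lowest and culture 2 highest in each. Within a number the level was highest in siFoxE1, then siScramble, then wt in all 4. A term for slide lowered the estimate of reporter 1 against siScramble to 0.24 (SE 0.151) and raised that of reporter 2 to 0.25 (SE 0.124). The siScramble arrays of the first slide alone gave 0.33 for reporter 1 (SE 0.0956) and 0.20 for reporter 2 (SE 0.0787).

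Slc26a7 and Slc16a10 were near background in these cells. Their single reporters (A_44_P398612 and A_44_P226315) were well above background on 0 of 10 arrays in the siFoxE1 channel, 0 of 5 in the siScramble channel and 1 of 5 in the wt channel. The ratios of Slc26a7 ran from -0.0752 to 0.0549 over siScramble and from -0.29 to 0.13 over wt on individual arrays, and those of Slc16a10 from -0.0718 to 0.0603 and from -0.0729 to 0.13. At such signals a difference between conditions was not detectable.

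The channel genes Kcnq1 and Kcne2 behaved differently from each other. Kcnq1 encodes the pore-forming subunit. Its reporter 2 (A_64_P094313) had ratios of -0.16, -0.18, -0.0725 and -0.19 over siScramble in replicates 1 to 4 and -0.0274 on the pooled array, and of -0.24, -0.0736, 0.0894, -0.14 and -0.0127 over wt. The estimates were -0.0889 against siScramble (SE 0.0649, 95% interval -0.24 to 0.0618, adjusted p = 0.619; -0.15 on the individual arrays alone) and -0.0514 against wt (SE 0.0821, 95% interval -0.25 to 0.15, adjusted p = 0.775). Reporter 1 (A_42_P787920) gave -0.0521 and -0.0479 (SE 0.0703 and 0.0767). All 4 intervals of the Kcnq1 reporters cover 0, and the lowest bound among them is -0.25. Both reporters were faint, with Cy5 signals of 67.5 to 88.5 over a background of 52 to 56.5 for reporter 1. For reporter 2 they were 91 to 118 over 51.5 to 56.2. Reporter 1 was well above background on 7 of 10 arrays in the siFoxE1 channel. The offset pulls such ratios towards 0, so the bound is no limit on the change of the transcript.

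Kcne2, the regulatory subunit, varied most between cultures. Its log2 intensity was 8.54, 8.43, 9.04 and 9.98 in siFoxE1 cultures 1 to 4, 8.83, 8.23, 8.85 and 9.59 in siScramble cultures and 8.01, 8.59, 8.495 and 9.25 in wt cultures, a spread of 1.55, 1.35 and 1.23, whereas a siFoxE1 extract differed by at most 0.0788 between its arrays. Culture 4 was highest in all 3 conditions. The ratios of siFoxE1 over siScramble were -0.28, 0.17, 0.15 and 0.37, and those over wt 0.52, -0.13, 0.59 and 0.76, while the pooled arrays gave -0.0253 and -0.00766. Replicates 1 and 2 thus pointed opposite ways in the comparisons. The estimates were 0.0373 against siScramble (SE 0.113, 95% interval -0.23 to 0.30, adjusted p = 0.939), 0.21 against wt (SE 0.16, 95% interval -0.17 to 0.59, adjusted p = 0.509) and 0.27 for siScramble against wt (SE 0.17, 95% interval -0.10 to 0.64, adjusted p = 0.984). Without the pooled array the estimate against wt was 0.43 (adjusted p = 0.114). That for siScramble against wt was 0.14 without replicate 1 and 0.41 without replicate 2.

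**Figure D4:**
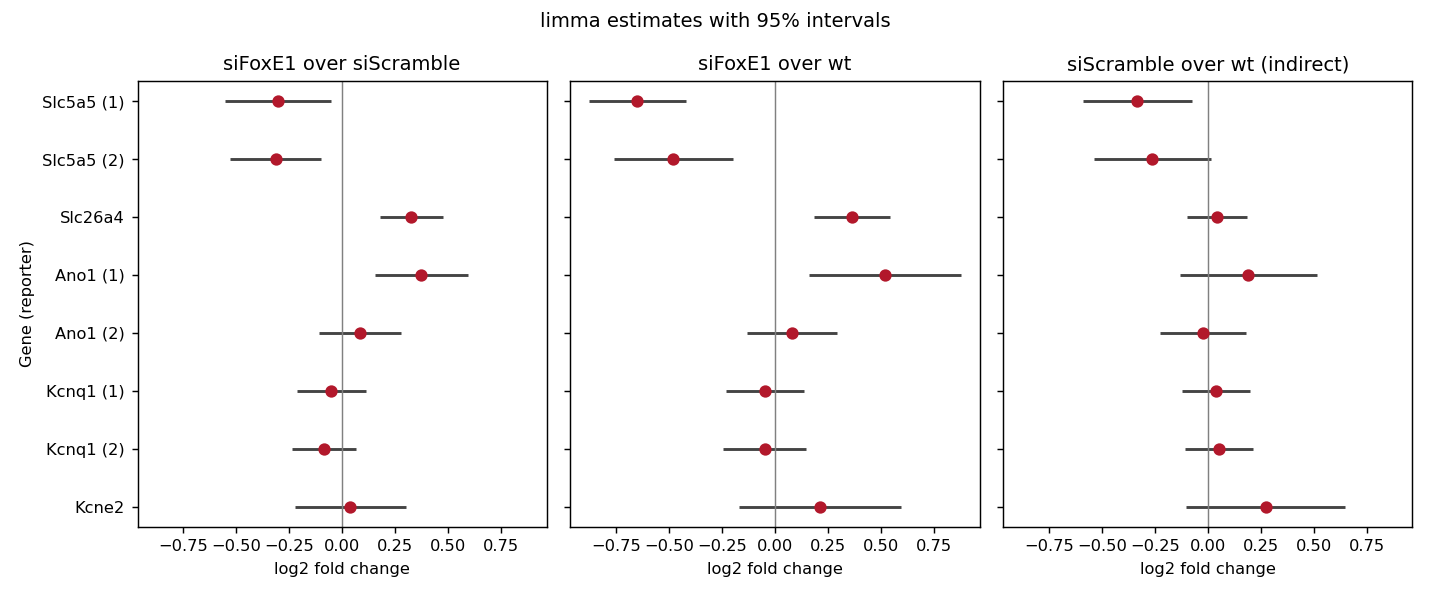
Log2 fold changes from limma with 95% intervals for the 8 tested reporters in siFoxE1 over siScramble, siFoxE1 over wt and, indirectly, siScramble over wt. In the comparisons with siFoxE1 the intervals of Slc5a5 lie below 0 and those of Slc26a4 and Ano1 reporter 1 above 0, and none of the estimates passed the adjusted threshold.

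The members did not point one way. Of the 5 genes tested, by the brighter reporter of each, 3 were above 0 and 2 below 0 in both comparisons with siFoxE1, with a median log2 fold change of 0.0373 against siScramble and 0.21 against wt, beside 0.0011 and -0.00184 over all genes tested. Across the 12 culture levels Slc5a5 correlated with Slc26a4 at r = -0.57 and with Ano1 at r = -0.0928, and Ano1 correlated with Slc26a4 at r = 0.64. These levels come from 8 arrays, share the dye within a condition and include the differences between conditions.

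Relatives and partners of the members were looked at in lists. Of 11 other Slc5 cotransporters 5 were tested and 1 rose, Slc5a3, the sodium/myo-inositol cotransporter, with 0.72 against siScramble (SE 0.0862, adjusted p = 0.0425) and 0.60 against wt (adjusted p = 0.233). Its call was lost without replicate 1 (adjusted p = 0.0541), replicate 2 (0.0517) or replicate 4 (0.0691). Slc5a8, a monocarboxylate cotransporter that was once taken for an apical iodide carrier, had 0.12 and 0.23 (adjusted p = 0.68 and 0.517). Of 9 other Slc26 exchangers 1 was tested against siScramble and 2 against wt, and none passed. Slc26a6, an exchanger of chloride, oxalate and bicarbonate, had -0.35 and -0.61 (adjusted p = 0.415 and 0.233), and Slc26a9, a chloride channel, -0.11 against wt (adjusted p = 0.498). Among 2 other anoctamins tested, Ano10 had 0.17 and 0.11 and Ano7 -0.0803 and -0.0673 against siScramble and wt. Of 8 other Kcnq and Kcne subunits 2 were tested against siScramble and 4 against wt, and none passed. Kcne4 had 0.00422 and -0.0503, and Kcnq3 had -0.041 against wt.

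Of 15 other transporters of thyroid hormone 4 were tested against siScramble and 5 against wt, and none passed. The value farthest from 0 in both comparisons was that of Slc3a2, the heavy chain of amino acid transporters that also carry thyroid hormone, with -0.34 and -0.37 (adjusted p = 0.296 and 0.311). Its light chain Slc7a5 had -0.18 and -0.11 (adjusted p = 0.31 and 0.589), and Slc7a8, another light chain, had 0.11 and 0.12. Of 12 chloride channel and sodium pump genes 11 were tested and none passed, with a median of 0.00769 against siScramble and -0.0148 against wt. Atp1b2, a beta subunit of the sodium pump, had 0.24 and 0.40 (adjusted p = 0.245 and 0.233), the pump regulator Fxyd5 had 0.29 and 0.38 (adjusted p = 0.218 and 0.214) and the chloride/proton exchanger Clcn3 had -0.36 and -0.56 (adjusted p = 0.382 and 0.258).

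The genes of hormone synthesis, which use the iodide, leaned both ways. Of 13 listed genes 10 were tested, with a median of 0.23 against siScramble and 0.33 against wt, and none passed. Duox2, the oxidase that supplies hydrogen peroxide, had 0.98 and 1.1 (adjusted p = 0.196 and 0.251) and its maturation factor Duoxa2 0.52 and 0.60 (adjusted p = 0.157 and 0.233). Tg, thyroglobulin itself, had -0.21 and -0.27 (adjusted p = 0.285 and 0.233). Of 8 thyroid transcription factors Foxe1 alone passed, while Pax8, which acts on the thyroid genes with it, had 0.20 and 0.33 (adjusted p = 0.541 and 0.401) and Nfix of the NF1/CTF family -0.0745 and 0.45 (adjusted p = 0.899 and 0.239). Of 10 tested genes of TSH and cAMP signalling none passed, with a median of -0.082 and -0.0777. Crem, a cAMP-responsive transcription factor, had -0.46 and -0.35 (adjusted p = 0.227 and 0.295), the phosphodiesterase Pde4d -0.23 and -0.0794 (adjusted p = 0.326 and 0.571), and Prkaca, a catalytic subunit of protein kinase A, 0.18 and 0.15 (adjusted p = 0.432 and 0.505).

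Interferon-stimulated genes, which respond to foreign RNA, were mostly higher beside the lower Slc5a5 in siScramble against wt, without passing the adjusted threshold. Of 16 listed genes 13 were tested and none passed in any comparison. Their median was 0.32 for siFoxE1 over siScramble, 0.87 for siFoxE1 over wt and 0.57 for siScramble over wt, and 11, 12 and 12 of the 13 were above 0. Over all genes tested 4897 of 9719, 4881 of 9880 and 4854 of 9978 were above 0. Stat2 was below 0 in each comparison, with -0.46, -0.49 and -0.0751, and Rsad2 had -0.405, 0.87 and 1.19. Ifi27 had 0.50 over siScramble, 1.69 over wt and 1.22 for siScramble over wt (SE 0.113, 0.234 and 0.223). Oas1a had 0.47, 1.63 and 1.18, and Isg15 had 0.60, 1.45 and 0.89. Their part in the values of Slc5a5 and the other members was not tested.

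The genes whose levels were most like those of each member across the 12 cultures are given as a description. For Slc5a5 they were Bag6, Pa2g4, Sf3b4, Ppat and Strn4 with r from 0.93 to 0.938, for Ano1 Mcat, St6gal1, Mrpl52, Bcam and Hint1 with r from 0.976 to 0.988, and for Kcne2 Ppp1r11, Kctd5, Mcrip2, Fam174c and Tgm2 with r from 0.931 to 0.959. For Slc26a4 they were Idnk, Igtp, Dpp10, Oas1e and Rassf2 with r from 0.917 to 0.949, and for Kcnq1, Rexo1, Mtnr1a, Ninj2, Actr2 and Arhgap10 with r from 0.824 to 0.865. Over the 8 individual ratios instead of the levels, the same genes were less alike. Their r lay between 0.656 and 0.804 for Slc5a5, between 0.826 and 0.925 for Ano1, between 0.415 and 0.902 for Kcne2, between 0.164 and 0.492 for Slc26a4 and between -0.0716 and 0.696 for Kcnq1. By the ratios the 5 genes of Slc5a5 ranked 115th to 514th among all genes, and those of Ano1 439th to 1306th.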

How the data were processed

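The authors scanned the arrays with Feature Extraction 10.7.3.1, whose deposited files give spot intensity and background per dye and a log10 ratio made from dye-normalized, background-subtracted signals. A deposited table gives the authors' normalized log2 ratios (loess and quantile, limma 3.2.3 per the submitters' processing notes). Median spot intensities were corrected by normexp (offset 50), adjusted by loess on each array and by quantiles across arrays, with 1.25 to 1.6% of spots per array left out as outliers, and averaged per reporter. limma 3.58.1 (R 4.3.3) was fitted with eBayes to the 5 arrays of each comparison, and siScramble vs wt to all 10 without the replicate block. Leaving out the block can make the SEs of siScramble vs wt too large. The fit was run on simulated ratios with independent noise per array, so shared extracts and pools were not part of that check. Reporters were named by accession through RefSeq's gene table for GRCr8, which gave names to 17998 of 30367. Named genes are every member, list members that passed or the 2 with the largest change per comparison, and the 5 most alike per member. Tg was named outside this rule after its values were seen, and some genes the rule takes are not reported here. The members and lists were chosen with earlier results of these data known. Replicate numbers pair arrays by the study's design drawing. Deviations of same-numbered arrays, which share that extract, correlated at 0.639, 0.784, 0.792 and 0.452, and those of differently numbered arrays at -0.664 to 0.518, the highest being siScramble 4 with wt 3.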

Additional observations from a re-analysis of the deposited data

Results flagged for a closer look

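Culture 1 of siFoxE1 stood apart in Slc5a5 reporter 2, with a log2 intensity of 8.67, while the other cultures lay between 9.40 and 9.47. It was picked out because its gap to the nearest culture was 0.906 of the range of the 4 cultures, above Dixon's 95% critical value. Over 48 groups of 4 values looked at, chance alone picks out about 1 in 20, and this was the only group picked out. The same culture was lowest in reporter 1, at 12.07. Without replicate 1 the log2 fold change of reporter 1 was -0.25 against siScramble and -0.61 against wt.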

How the results depend on the processing

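With 4 cultures and 10 arrays, the calls depended on how the spread was estimated, while the directions mostly did not. Among the alternatives, loess alone and quantiles applied only to the mean intensities gave identical ratios. Each count of alternatives therefore holds that result more than once. By the brighter or only reporter of each gene, Slc5a5 stayed below 0 and Slc26a4 and Ano1 above 0 in all 17 alternatives against siScramble, all 15 against wt and, for siScramble against wt, all 16. Kcnq1 also kept its direction by its brighter reporter, while its other reporter was 0.000434 against wt on individual arrays alone and -0.0982 for siScramble against wt in the Cy3 channels, against -0.0479 and 0.0364 in the report. The dimmer Ano1 reporter was near 0 for siScramble against wt, between -0.0862 and 0.0226. Kcne2 kept its direction except against siScramble, where it was -0.00995 in the fit of 10 arrays with and without the replicate block, -0.00527 with slide as a term, and between -0.00692 (without replicate 4) and 0.101 (without replicate 1) with a replicate left out. The cause was not tested.

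Slc5a5 against wt passed the adjusted threshold in 4 alternatives, with -0.649 without the dye term (adjusted p = 0.00947), -0.648 on the individual arrays alone (0.0394), and -0.647 in the fit of 10 arrays with the replicate block (0.0035) and without it (0.00661). Over all alternatives against wt its adjusted p ran from 0.0035 to 0.434. Against siScramble Slc5a5 passed in 0 of 17 alternatives, where the lowest limma adjusted p was 0.0644. Slc26a4 passed in 3 alternatives against siScramble and 3 against wt, Ano1 in 1 and 3, and Kcnq1 and Kcne2 in none. The alternatives in which a member passed also called more of the array. They called 96 to 691 of 18139 reporters against siScramble, beside 22 in the report. Against wt they called 225 to 1652 of 18526 reporters, beside 9 in the report. Slc26a4 entered the test against wt only through the siFoxE1 channel, in which it is high, so its passes against wt are a description. Slc5a5 and Ano1 passed against wt in the fit of 10 arrays both with and without the replicate block, and Slc26a4 did so under that limit. Between these fits the block changed 1 call of a member's brighter or only reporter, that of Slc26a4 against siScramble (0.0265 without it and 0.0559 with it). For siScramble against wt no member passed in any alternative.

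The reporters called against siScramble and wt numbered 691 and 849 without the dye term, 524 and 225 without the pools, 0 and 0 with a robust intensity trend, 0 and 0 from the scanner software's own processed signals, 96 and 1652 over 10 arrays without the block and 64 and 1502 with it. For siScramble against wt the block called 2, and the difference of same-numbered arrays 21. Against siScramble, slide as a term called 5 and slide 1 alone 37. Leaving out a replicate gave 12 (replicate 1) to 35 (replicate 2) against siScramble and 0 (replicate 4) to 65 (replicate 3) against wt. Scan time and slide were the same split, so no separate block could be fitted for scan time. The faint signals of Slc26a4, Slc26a7, Slc16a10 and Kcnq1 limit what their ratios show.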
